A study of Mus musculus with 6 samples.

Results

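The extracellular matrix genes described here were those whose symbol names a collagen chain, a lysyl oxidase, a laminin chain, a thrombospondin or a fibulin, together with fixed symbols such as Fn1, Sparc, Tnc, Bgn, Vcan, Hspg2, the nidogens, the enzymes P4ha1, P4ha2, Plod1 and Plod2, and the collagen chaperone Serpinh1. A probe was kept when 1 or more of the 6 arrays gave it a detection p no higher than 0.05. By this rule 86 probes of 50 genes were kept, out of 20308 tested probes and 10585 named genes. No probe named for Postn, Dcn, Lum, Eln, Fbn1 or Fbn2 passed the filter. Probes below the filter carry no gene name in the annotation used here, so a gene without a kept probe may be undetected or may have no probe, and the same holds for the marker lists.

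The cells were 3T3-CrT cells, mouse 3T3 Tet-Off fibroblasts that stably express a rabbit creatine transporter (CrT) cDNA with a hemagglutinin tag, kept in medium with G418 and puromycin. Both groups carried the transgene. One group was 3 untreated control wells and the other was 3 wells given 5 mM creatine monohydrate (Cr) in growth medium for 3 h, and total RNA of each was hybridized to its own Illumina Mouse WG-6 v2 array. No group without the transporter and no other dose or time was part of these arrays, and whether the cells are 1 clone is not stated in the sources used here.

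Fibroblasts secrete most of the collagen of connective tissue. Procollagen chains are hydroxylated and folded in the endoplasmic reticulum with the help of prolyl and lysyl hydroxylases and of the chaperone HSP47, and outside the cell lysyl oxidases crosslink the assembled fibrils. Laminins, type IV collagen, nidogens and perlecan form basement membranes, while fibronectin, tenascin-C, SPARC and the thrombospondins bind cells and modulate their adhesion.

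The arrays were alike in depth of detection. Between 16396 and 17700 probes per array were detected, and median signals lay between 152 and 167 arbitrary units. Fibroblast markers were present, with 7 of 9 genes kept and 6 of them detected on all 6 arrays, among them Vim, Prrx1, Twist1 and Twist2, and with no kept probe for Thy1 and Fap. Of the defining markers of other cell types, 0 of 4 osteoblast, 1 of 5 endothelial, 1 of 5 adipocyte, 2 of 5 chondrocyte, 2 of 5 macrophage, 3 of 5 epithelial and 3 of 5 myofibroblast genes were kept. Among these kept genes, 1 chondrocyte, 1 macrophage, 2 epithelial and 2 myofibroblast genes were detected on all 6 arrays. Untreated replicate 1 stood apart, with a limma array weight of 0.498 against 0.885 to 1.45 for the other arrays. Values without it are given below for some of the probes it moved, not for all.

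Values below are generalized log2 signals after variance stabilization (vsn), fold changes are Cr minus untreated on that scale, and errors are standard errors (SE) or 95% intervals of limma's moderated fit. The scale shrinks the changes of dim probes. The level of one probe cannot be set against that of another. The sources number the wells as replicates without saying whether the cells of each were cultured apart beforehand, so that p-values reflect only how these 6 samples vary, which may be technical.

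No matrix gene passed the test after 3 h in 5 mM Cr, and the differences between the groups were mostly smaller than the spread between wells. At an adjusted p of 0.05 or less (limma, Benjamini-Hochberg over all tested probes), 0 of the 86 matrix probes were called, against 0.0295% of all tested probes, which is 6 probes. At an unadjusted p of 0.05 or less, 4 of the 86 were found, against 5.04% of all tested probes. One of them was higher with Cr, against 2.45% of all tested probes in that direction. It was a dim probe of Fbln1 that passed the detection filter only through Cr arrays. The other 3 were lower, being 2 probes of Tnc and 1 of Col8a1, against 2.6%. Since these are bulk samples, less RNA per cell cannot be told apart from fewer cells that express a gene.

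The fold changes of the matrix probes were small in both directions. Of the 86, 44 were above 0 and 42 were below 0, with a median of 0.0072 beside 0.0014 over all tested probes, and the range was -0.31 to 0.21. The 95% interval of every matrix probe lay inside a 1.5-fold difference either way, as it did for 99.7% of all tested probes. With the neqc normalization, in which intervals were wider across the array, 20 of the 86 intervals passed that limit and 80.2% of all tested probes kept within it. A narrower limit of 1.25-fold held the intervals of 66 of the 86, or 76.7%, beside 79.7% of all tested probes. For 6 matrix probes, 6.98%, the 3 Cr values and the 3 untreated values did not overlap, 3 with Cr higher and 3 with Cr lower, whereas the share over all tested probes was 10.7% (5.59% higher and 5.15% lower). Restricted to the 61 probes, of 38 genes, that were detected on all 6 arrays, the median was 0.012 and the range -0.31 to 0.17.

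**Figure D1:**
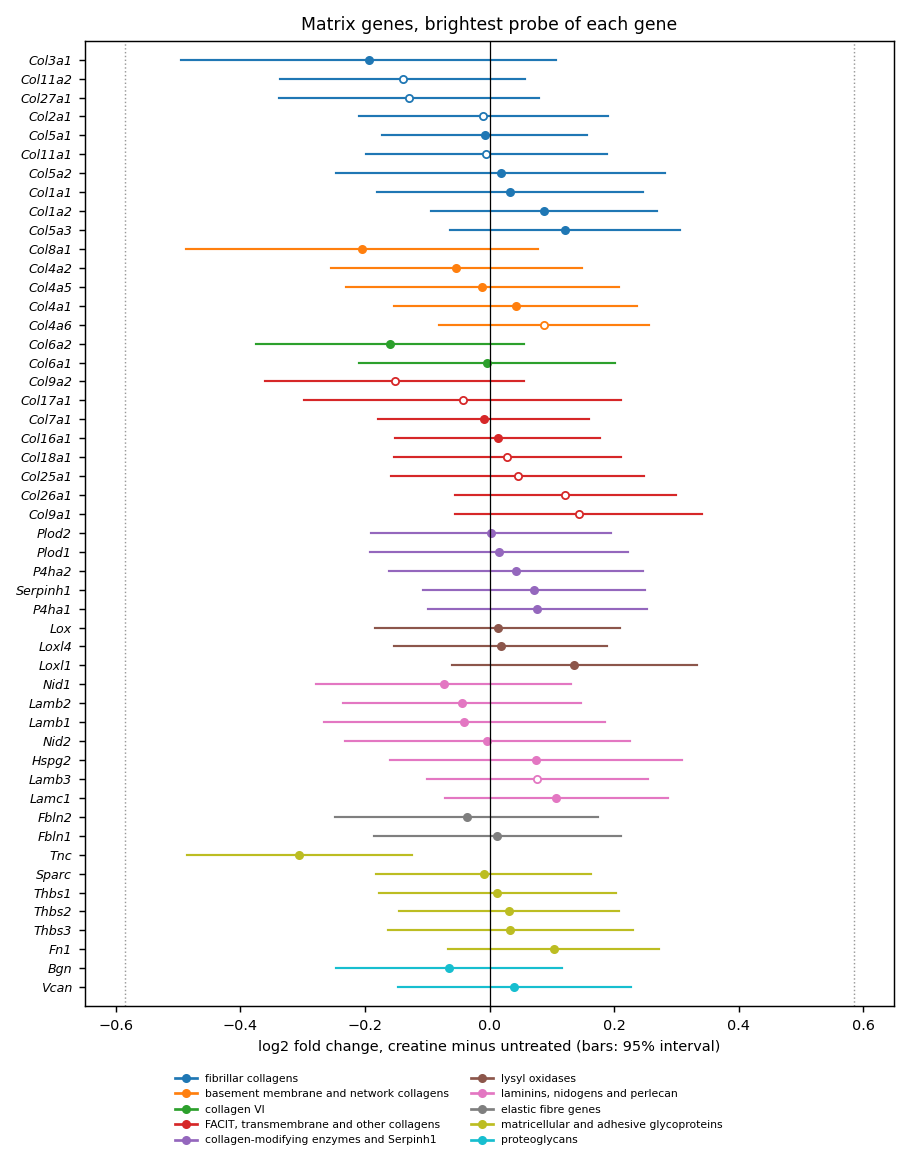
Log2 fold change (x axis, Cr minus untreated) of the brightest probe of each of the 50 matrix genes (y axis), grouped and coloured by role, with bars for the 95% interval, filled points for probes detected on all 6 arrays, open points for the others and dotted lines at a 1.5-fold difference. Fitted values of Col4a6, Col9a1, Col9a2 and Col11a2, each undetected in 1 group, are not measured folds. All 50 intervals lie between the dotted lines, and only that of Tnc does not cross 0.

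**Figure D2:**
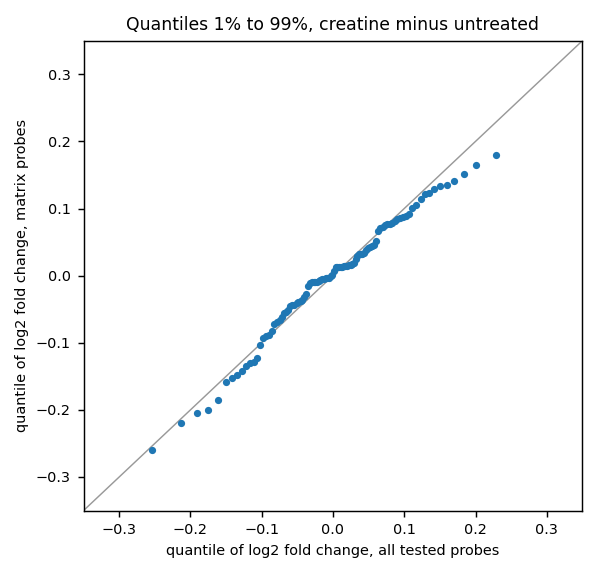
The 1% to 99% quantiles of the log2 fold change (Cr minus untreated) of the 86 matrix probes (y axis) against the same quantiles of all 20308 tested probes (x axis), with the line of equality. The points follow the line near the middle, lie closer to 0 than the line at the upper end and slightly farther from 0 at the lower end, where the 5% quantile is -0.19 against -0.16.

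Tnc, which encodes the adhesion-modulating glycoprotein tenascin-C, had the lowest p of the matrix genes. On probe ILMN_2463181 the untreated values were 11.21, 11.09 and 10.999 and the Cr values were 10.73, 10.82 and 10.84. All 3 Cr samples were below all 3 untreated samples. The fold change was -0.31 (SE 0.084, 95% interval -0.49 to -0.12), or 80.9% of untreated with an interval from 71.4% to 91.7%, with an adjusted p of 0.573 (limma). The raw signals were 2702, 2286 and 1784 units in untreated samples and 1710, 1895 and 1966 units with Cr. On the raw scale the untreated samples spread far more widely than the Cr samples, and untreated replicate 3 lay among the Cr samples. Raw signals are not adjusted between arrays, and this wider raw spread was not particular to Tnc. For Col5a1 the raw standard deviation (SD) was 577 units untreated and 188 with Cr, beside 0.021 and 0.020 in normalized values.

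The other probes of Tnc gave a mixed account. On ILMN_2463180 the untreated values were 10.90, 10.72 and 10.60 and the Cr values were 10.54, 10.51 and 10.43, again without overlap, for a fold change of -0.25 (SE 0.090, adjusted p = 0.915). Untreated replicate 1 was the highest sample on both probes. Without it, the fold change of ILMN_2463181 was -0.25 and that of ILMN_2463180 was -0.17. On the dimmer probe ILMN_2485085, detected on all 6 arrays, the values were 7.50, 7.51 and 7.35 untreated and 7.34, 7.18 and 7.45 with Cr, and the groups overlapped at a fold change of -0.13 (SE 0.091). The last probe, ILMN_1236724, was detected on 3 arrays and its fold change was -0.0029 (SE 0.093).

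Col8a1, the alpha-1 chain of the short-chain collagen VIII of subendothelial matrix, was the other gene with a lower probe at an unadjusted p of 0.05 or less. On ILMN_1255925 the untreated values were 11.20, 11.03 and 10.88 and the Cr values were 10.85, 10.90 and 10.75. The highest Cr sample was just above the lowest untreated sample. The fold change was -0.21 (95% interval -0.40 to -0.0080, adjusted p = 0.962). The second probe, ILMN_2503553, had nearly the same fold change, -0.20, with a larger SE of 0.13, because its untreated values, 11.52, 10.88 and 11.13, were far apart. Its Cr values were 11.14, 10.82 and 10.95. Without untreated replicate 1 the fold changes were -0.13 and -0.035, the smallest in size for any sample left out. The largest in size were -0.28 without untreated replicate 3 on ILMN_1255925 and -0.35 without untreated replicate 2 on ILMN_2503553.

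**Figure D3:**
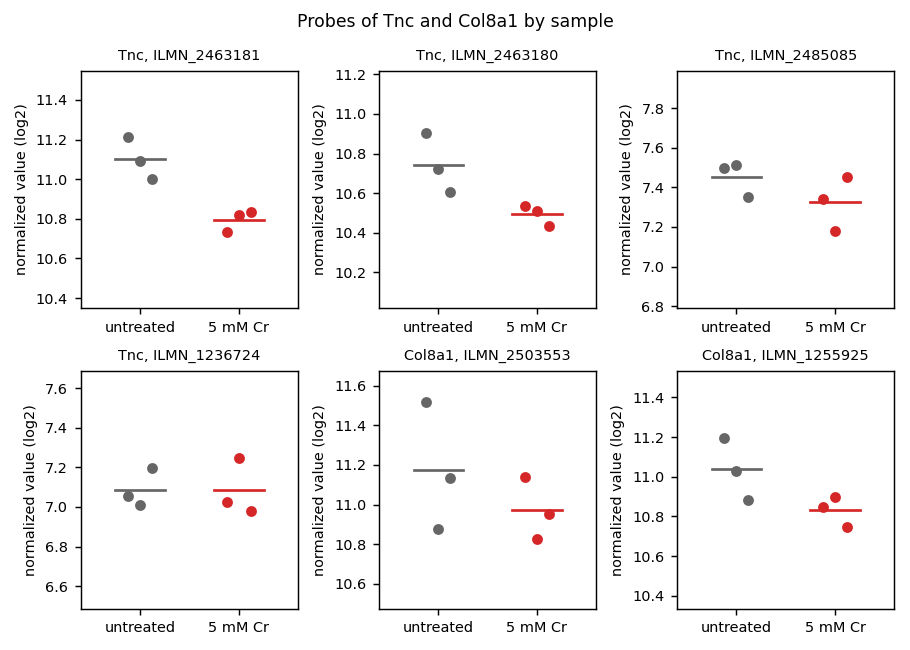
Normalized log2 value (y axis, the same span of 1.2 in each panel) of each sample for 4 probes of Tnc and 2 probes of Col8a1, in untreated (grey) and 5 mM Cr (red) wells, with a line at each group mean. The groups do not overlap on Tnc probes ILMN_2463181 and ILMN_2463180, and they overlap on the other 4 panels.

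The fibrillar collagens, which form the banded fibrils of connective tissue, were represented by 13 probes of 10 genes, with a median fold change of -0.0053 and a range of -0.19 to 0.12. None of these probes had an unadjusted p of 0.05 or less. Col1a1, the alpha-1 chain of type I collagen, had untreated values of 11.91, 11.66 and 11.67 and Cr values of 11.95, 11.77 and 11.63, a difference of 0.033 (SE 0.10). Its partner chain Col1a2 had values of 8.68, 8.57 and 8.62 untreated and 8.64, 8.84 and 8.66 with Cr, a difference of 0.087 (SE 0.085). In both chains the groups overlapped and the difference was no larger than about 1 SE.

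Col3a1, the chain of type III collagen, varied most among the fibrillar chains. Its untreated values were 8.39, 8.01 and 7.96 and its Cr values 8.29, 7.71 and 7.78, for a fold change of -0.19 (SE 0.14, adjusted p = 0.986). In each group replicate 1 was clearly the highest, and the groups overlapped. The fold change was -0.061 without untreated replicate 1 and -0.38 without Cr replicate 1. Col5a1, a chain of the type V collagen that starts fibril growth, was by contrast nearly constant, at 11.93, 11.96 and 11.92 untreated and 11.91, 11.95 and 11.94 with Cr. Its 95% interval, -0.17 to 0.16, was the narrowest of the 86. Col5a2 had 8.86, 8.67 and 8.45 untreated and 8.79, 8.39 and 8.84 with Cr on its brightest probe (fold change 0.018), and Col5a3 had 7.24, 7.30 and 7.09 against 7.40, 7.24 and 7.35 (fold change 0.12, SE 0.086).

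Fibrillar chains of cartilage were near background. Col2a1 was detected on 4 arrays (fold change -0.0099) and Col11a1 also on 4 (-0.0053). Col27a1, detected on 3 arrays, had 7.12, 6.999 and 7.15 untreated and 6.77, 6.98 and 7.14 with Cr, a fold change of -0.13 (SE 0.098) with overlap. Col11a2 had 2 probes that pointed in opposite directions, -0.14 on ILMN_1222218 and 0.092 on ILMN_2865074. The values of the first were 6.95, 7.21 and 7.26 untreated and 7.02, 6.98 and 6.9998 with Cr. It was detected on 2 untreated arrays and on 0 Cr arrays, so that its fitted value is not a measured fold. A bound of 1.08-fold lower with Cr is given beside it. This bound sets the Cr arrays, where the probe was not above background, to the lowest detected value when the probe lay below it. It carries no sampling error, and the values of the groups overlapped.

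The enzymes that modify procollagen, with the chaperone, were represented by 10 probes of 5 genes. Their median was 0.029 and their range -0.090 to 0.17. Of these probes, most of which share a gene with another, 8 were above 0, beside 10278 of all 20308 tested probes. None of the 10 reached an unadjusted p of 0.05. Serpinh1, which encodes the collagen chaperone HSP47, was at 13.96, 14.00 and 14.12 in untreated and 14.10, 14.17 and 14.02 in Cr samples on its brightest probe. The fold change was 0.072 (SE 0.083) there and 0.053 on the second probe, with overlap on both. P4ha1, a catalytic subunit of prolyl 4-hydroxylase, had 9.10, 9.16 and 9.11 against 9.20, 9.10 and 9.29 with Cr (fold change 0.077, SE 0.082).

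P4ha2, the catalytic subunit of another prolyl 4-hydroxylase isoform, had the lowest p of this group. On ILMN_2789562 the untreated values were 9.49, 9.43 and 9.26 and the Cr values 9.49, 9.72 and 9.50, for a fold change of 0.17 (SE 0.093, adjusted p = 0.986). The highest untreated sample lay just above the lowest Cr sample. On the brighter probe of the gene, the values were 10.69, 11.02 and 10.80 against 10.85, 10.97 and 10.81, and the fold change was 0.043. The lysyl hydroxylase genes Plod1 and Plod2, whose products prepare crosslink sites, had fold changes of 0.015 on the probe of Plod1 and of 0.0022, -0.087 and -0.090 on the 3 probes of Plod2. Without untreated replicate 1, the value of -0.090 became 0.089. On its brightest probe Plod2 was at 9.95, 9.70 and 9.69 untreated and 9.78, 9.72 and 9.85 with Cr. Its probe of lowest p, detected on 2 arrays, had 7.20, 7.05 and 6.86 against 6.94, 6.87 and 7.04, and the groups overlapped on both.

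The lysyl oxidases, copper enzymes that crosslink collagen and elastin, had 6 probes of 3 genes with a median of 0.016 and a range of -0.15 to 0.14. Lox was at 12.10, 11.77 and 11.85 in untreated and 11.92, 11.93 and 11.91 in Cr samples. The Cr samples lay within the untreated range, and the fold change was 0.013 (SE 0.092). The 2 probes of Loxl1, a lysyl oxidase that acts on elastic fibres, disagreed. The brighter one, with 13.15, 13.44 and 13.34 against 13.43, 13.54 and 13.37, had a fold change of 0.14 (SE 0.092), or 0.057 without untreated replicate 1. The dim one, detected on 5 arrays, had 7.29, 7.21 and 7.21 against 7.05, 7.03 and 7.20, without overlap and with Cr lower, at a fold change of -0.15 (SE 0.083, adjusted p = 0.986). The 3 probes of Loxl4 ranged from -0.091 to 0.085, the lowest of them having 7.86, 7.88 and 7.80 against 7.74, 7.72 and 7.80 with Cr.

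Basement membrane and network collagens had 7 probes of 5 genes, Col8a1 included, with a median of -0.011. Col4a1 and Col4a2, the paired chains of the common type IV collagen, differed by 0.042 (SE 0.091) and -0.053 (SE 0.094). The values of Col4a1 were 11.74, 11.64 and 11.78 untreated and 11.93, 11.65 and 11.72 with Cr, while those of Col4a2 were 11.21, 10.97 and 10.97 against 11.12, 10.97 and 10.89. For both chains replicate 1 of the Cr group was its highest sample, and the groups overlapped. Col4a5 had -0.011 and 0.078 on its probes. Col4a6 was detected on 2 arrays, both of the Cr group. Its values were 6.91, 6.95 and 7.03 untreated and 7.02, 7.04 and 7.09 with Cr, with a narrow overlap between the groups, and no fold is given because the bound was under 1.

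Collagen VI, which forms beaded microfibrils around cells, was measured by 2 probes each of Col6a1 and Col6a2. On Col6a1 ILMN_1259388 the values were 10.38, 10.35 and 10.33 untreated and 10.47, 10.60 and 10.47 with Cr. All 3 Cr samples were above all 3 untreated samples, with a fold change of 0.16 (95% interval -0.0087 to 0.33, adjusted p = 0.985). The brighter probe of the same gene did not share this separation: its values were 11.22, 10.94 and 10.90 against 11.05, 10.91 and 11.08, and its fold change was -0.0042 (SE 0.096). Col6a2 had 8.96, 8.56 and 8.89 against 8.66, 8.66 and 8.61 on its brighter probe, a fold change of -0.16 (SE 0.10), and -0.045 on the other. Leaving out untreated replicate 1 turned the first value to -0.081, and leaving out untreated replicate 2 turned it to -0.28.

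The remaining collagens, among them the fibril-associated and transmembrane chains, had 8 probes of 8 genes with a median fitted fold change of 0.021. Only Col16a1, a fibril-associated chain, and Col7a1, the anchoring-fibril collagen, were detected on all 6 arrays, with fold changes of 0.013 (SE 0.077) and -0.0094 (SE 0.079). The others were detected on 1 to 4 arrays. Among them, Col26a1 had 6.98, 7.18 and 7.03 against 7.18, 7.14 and 7.22 (fold change 0.12, SE 0.083), and Col17a1, Col18a1 and Col25a1 had fold changes of -0.043, 0.029 and 0.045. Col9a1 and Col9a2, chains of cartilage type IX collagen, were each detected on 1 array, a Cr array for Col9a1 and an untreated array for Col9a2. The values of Col9a1 were 6.91, 6.75 and 6.93 untreated and 6.98, 7.16 and 6.88 with Cr, and those of Col9a2 were 6.89, 7.21 and 6.90 against 6.75, 6.92 and 6.87. Both pairs of groups overlapped, and no fold is given because the bounds were under 1. Such probes passed the filter through 1 group alone. Of the 86 matrix probes, 4 were kept only through Cr arrays and 2 only through untreated arrays. Over all 20308 tested probes these numbers were 1529 and 955.

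Laminins, nidogens and perlecan had 10 probes of 7 genes, 5 above and 5 below 0, with a median of 0.0057 and a range of -0.073 to 0.11. All 10 intervals lay inside a 1.25-fold difference. Lamc1, the gamma-1 chain found in most laminins, had 9.67, 9.58 and 9.46 against 9.62, 9.70 and 9.71 on its brighter probe, for a fold change of 0.11 (SE 0.084), and -0.039 on the other. Lamb1 had 8.18, 8.21 and 7.80 against 8.11, 7.95 and 8.02 (fold change -0.040, SE 0.11). Nid1, whose product links laminin to type IV collagen, had 9.33, 9.32 and 9.06 against 9.29, 9.12 and 9.09 (fold change -0.073, SE 0.096). In all 3 genes the groups overlapped. Both probes of Hspg2, the perlecan gene, were close to each other, at 0.070 and 0.074. Lamb2, Lamb3 and Nid2 had -0.044, 0.077 and -0.0033.

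The fibulins, glycoproteins of elastic fibres and basement membranes, had 7 probes of 2 genes. The 5 probes of Fbln1 included the only matrix probe that was higher at an unadjusted p of 0.05 or less. On this probe, ILMN_2602770, the untreated values were 6.98, 6.73 and 7.03 and the Cr values 7.08, 7.18 and 7.12, without overlap. It was detected on all 3 Cr arrays and on 0 untreated arrays, so it passed the filter only through the group where it was higher. The bound was 1.04-fold higher with Cr and carries no sampling error. The fitted fold change was 0.21 (SE 0.091, adjusted p = 0.956, limma). The fitted value was 0.48 with neqc and 0.12 without untreated replicate 2. The other 4 probes of Fbln1, detected on all 6 arrays, had fold changes between -0.069 and 0.016. Fbln2 had -0.037 and -0.026, and its probe ILMN_3132949 was the most variable of the matrix set within groups (residual SD 0.29).

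Among the matricellular and adhesive glycoproteins, with 16 probes of 6 genes and a median of -0.0062, Fn1, Sparc and the thrombospondins differed little. Fn1, the fibronectin gene, had 10.35, 10.40 and 10.48 against 10.51, 10.52 and 10.51 on its brightest probe, ILMN_2595714. The Cr samples lay above the untreated samples without overlap, and the fold change was 0.10 (SE 0.079, adjusted p = 0.986). Its other 3 probes had 0.083, -0.054 and -0.12 and overlapped. Sparc, which encodes a collagen-binding glycoprotein, was at 13.17, 13.07 and 13.07 against 13.09, 13.03 and 13.17 on its brightest probe (fold change -0.0094, SE 0.081). Of its other probes, ILMN_1243212 had 0.13, with 11.54, 11.11 and 11.15 against 11.40, 11.25 and 11.56, where the SE was 0.11. This value was 0.27 without untreated replicate 1, 0.056 and 0.074 without untreated replicates 2 and 3, and 0.054 without Cr replicate 3. Thbs1, the thrombospondin-1 gene, had 9.27, 9.45 and 9.20 against 9.29, 9.41 and 9.25 (fold change 0.012, SE 0.089), and the probes of Thbs2 and Thbs3 lay between -0.059 and 0.033.

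The proteoglycans were Bgn, the gene of the small leucine-rich proteoglycan biglycan, and Vcan, that of the large proteoglycan versican. Bgn was at 14.76, 14.77 and 14.82 in untreated and 14.84, 14.60 and 14.71 in Cr samples. The groups overlapped, with a fold change of -0.066 (SE 0.085). The 4 probes of Vcan, of which 1 was detected on all 6 arrays, had fold changes from -0.10 to 0.13. The highest, on ILMN_2655336, came from 7.18, 6.98 and 7.02 untreated and 7.31, 7.14 and 7.12 with Cr, which overlapped.

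Probes of the same gene did not always point the same way. Of the 22 matrix genes with more than 1 kept probe, the signs were the same in 8, and in 6 the fold changes of the probes differed by more than 0.2. These 6 were Tnc, Fbln1, Loxl1, Col11a2, Vcan and Fn1. In Fn1 the extremes, -0.12 and 0.10, were both on probes detected on all 6 arrays, while in the others at least 1 extreme was on a probe that was not. The transcripts that each probe binds were not examined here.

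**Figure D4:**
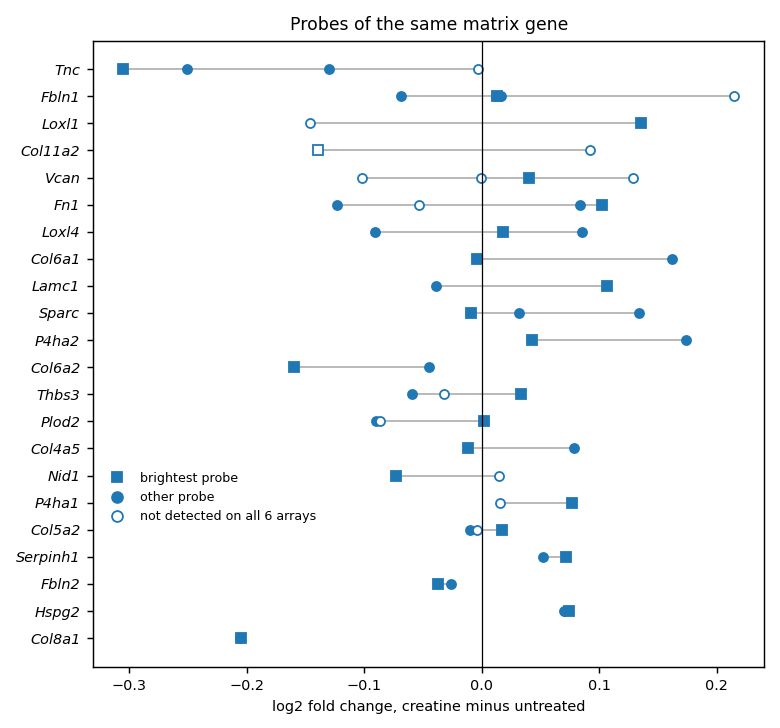
Log2 fold change (x axis, Cr minus untreated) of every kept probe of the 22 matrix genes with more than 1 probe (y axis, ordered by the spread of the probes), with squares for the brightest probe, circles for the others and open symbols for probes not detected on all 6 arrays. The span was 0.30 in Tnc, the widest, and 0.0013 in Col8a1, the narrowest.

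The spread between replicates was larger for the matrix probes than for the array as a whole. Their median residual SD was 0.121, beside 0.104 over all tested probes, and among probes detected on all 6 arrays it was 0.121 beside 0.0992. This difference was not tested. Untreated replicate 1 was above the mean of its group for 57 of the 86 matrix probes, 66.3%, beside 51.8% of all tested probes, and untreated replicate 3 for 26 of the 86, 30.2%, beside 47.3%. In the Cr group the numbers above the mean were 49, 43 and 33 for replicates 1, 2 and 3. These are 57.0%, 50% and 38.4%, beside 49.9%, 48.2% and 50.7% of all tested probes. Over the 61 probes detected on all arrays, the median deviation of untreated replicate 1 was 0.091 and that of untreated replicate 3 was -0.048. The median size of the fold change between the groups was 0.054 over the 86 probes. Without untreated replicate 1, the median fold change of the matrix probes was 0.024 instead of 0.0072, beside 0.0044 for all tested probes, and 3 probes were higher and 2 lower at an unadjusted p of 0.05 or less, beside 3.63% and 3.02% of all tested probes.

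**Figure D5:**
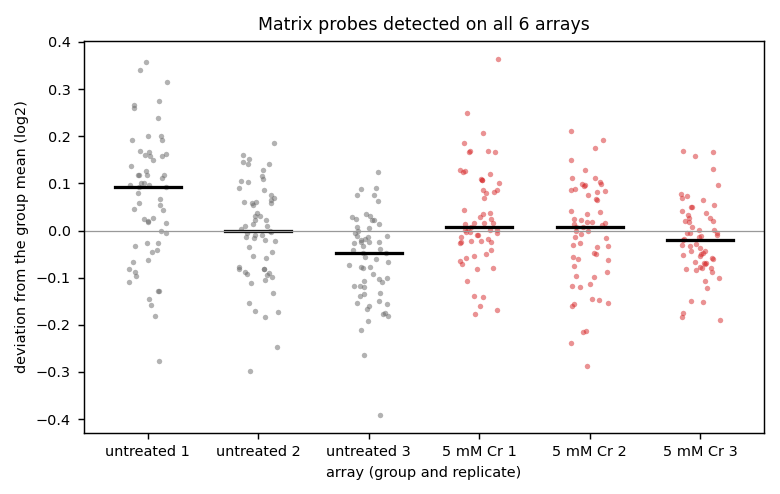
Deviation from the mean of its own group (y axis, log2) of each of the 61 matrix probes detected on all 6 arrays, by array (x axis; grey, untreated; red, 5 mM Cr), with a black line at the median. Untreated replicate 1 has the highest median, 0.091, and untreated replicate 3 the lowest, -0.048.

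Genes of the same pathways outside the set were counted in lists. None of their probes had an adjusted p of 0.05 or less, and the counts that follow are of probes at an unadjusted p of 0.05 or less, to be read against the 2.45% and 2.6% of all tested probes. Of 24 further genes of collagen folding, processing and secretion, 16 were kept with 26 probes, 1 of them higher and 1 lower. These were Sec23a, part of the coat of vesicles that leave the endoplasmic reticulum, at 0.22 (SE 0.093), and Tll1, a procollagen proteinase, on a probe detected on 1 untreated array and 0 Cr arrays, for which no fold is given. Of 48 other matrix proteins and matrix-producing enzymes, 23 were kept with 37 probes, 1 higher and 2 lower.

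The lowest p among those was that of Has2, which encodes a hyaluronan synthase, at -0.32 (SE 0.081, adjusted p = 0.436). Mfap5, a microfibril-associated glycoprotein gene, was at 0.25 (SE 0.078, adjusted p = 0.726). Mgp, which encodes the calcification inhibitor matrix Gla protein and was chosen for mention after its value was seen, was at -0.29 (SE 0.094, adjusted p = 0.788). The groups of all 3 did not overlap, as was the case for 10.7% of all tested probes. These genes were picked for low p, which favours such separation. Of 12 genes of TGF-beta signalling, the main inducer of matrix genes in fibroblasts, 11 were kept with 16 probes. Of these, 1 was higher, Eng, which encodes the co-receptor endoglin, at 0.19 on a probe detected on 1 untreated and 3 Cr arrays. The brightest probe of Tgfbr2, the type II receptor, had 0.13 (SE 0.082).

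Among 17 receptors for collagen, laminin and other matrix ligands, 12 were kept with 25 probes, 1 higher and 1 lower. Itga5, the alpha-5 chain of the fibronectin receptor, was at -0.31 (SE 0.12, adjusted p = 0.948) on one probe and -0.23 (SE 0.13) on the other. Cd47, a receptor for thrombospondin-1, was at 0.19 (SE 0.078, adjusted p = 0.948) and 0.16 (SE 0.079). Markers of other cell types that were lower at an unadjusted p of 0.05 or less were those of 2 genes. Sox9, the chondrocyte transcription factor that activates Col2a1 and Col11a2, had -0.23 (SE 0.079) and -0.29 (SE 0.13) on its probes, and Tagln, a smooth muscle and myofibroblast marker, had -0.18 (SE 0.081). The other bright marker of the myofibroblast list, Acta2, which encodes smooth muscle actin, had 0.16, 0.13, 0.062 and -0.048 on its 4 probes, and the median of the 6 probes of that list was 0.036. Their part in the values of the matrix genes was not tested.

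Sequences upstream of the transcription start were available for 39 of the 50 genes, as 45 windows, since some genes have more than 1 start. They are given for the genes of lowest p that were lower (Tnc, Col8a1), for Col6a1, one of whose probes separated the groups upward, and for Col1a2, a main fibroblast collagen. Each shows the 100 bases before the RefSeq start that lies farthest upstream in the GRCm38.p6 assembly, read 5′ to 3′ on the strand of the gene, with any match, on either strand, to the TATA box core TATAA, to the box CCAAT or to the GC box core GGGCGG in capitals.
Tnc, chr4:64047016-64047115, minus strand: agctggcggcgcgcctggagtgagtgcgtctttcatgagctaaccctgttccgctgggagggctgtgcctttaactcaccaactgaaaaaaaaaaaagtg
Col8a1, chr16:57754738-57754837, minus strand: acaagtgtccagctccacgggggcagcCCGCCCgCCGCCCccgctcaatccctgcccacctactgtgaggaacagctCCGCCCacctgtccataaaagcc
Col6a1, chr10:76726045-76726144, minus strand: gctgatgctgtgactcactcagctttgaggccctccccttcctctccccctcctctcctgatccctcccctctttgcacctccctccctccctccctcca
Col1a2, chr6:4505518-4505617, plus strand: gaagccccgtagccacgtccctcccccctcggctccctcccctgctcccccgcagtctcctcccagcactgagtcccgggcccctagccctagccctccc

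Col8a1 held 3 matches to GGGCGG, all on the opposite strand, and the windows of Tnc, Col6a1 and Col1a2 held no match to any of the 3 motifs. Over the 45 matrix windows, GGGCGG was found in 26, or 57.8%, beside 24.7% of the 32851 windows of all genes. CCAAT was found in 6 (13.3% beside 18.9%) and TATAA in 3 (6.67% beside 10.2%). Windows of the same gene overlap, and matches on opposite strands can overlap, as in TTATAA. The windows of all genes were not limited to genes with a kept probe, as the matrix windows were. The shares were therefore not set against those of detected genes. A match to these letters is a description of the sequence alone.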

How the data were processed

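Intensities were read from the deposited export of 6 Illumina Mouse WG-6 v2 BeadChips, 3 for untreated and 3 for Cr-treated 3T3-CrT wells. For each of 45281 probes it holds an intensity, from which the authors had subtracted no background, and a detection p-value, which the authors obtained by ranking the probe against negative controls. The deposited log2 values, made by the authors with background correction and vsn, entered only as an alternative. Sample labels gave the groups and replicate numbers. No sample was left out.

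The vsn transformation (asinh, with its own offset and scale for every array) was coded in R 4.3.3 and fitted to all probes in 7 rounds of least trimmed squares (quantile 0.9). Probes detected (p no higher than 0.05) on 1 or more arrays were tested in limma 3.58.1 with lmFit and eBayes. Tests were two-sided and without covariates, and the Benjamini-Hochberg adjustment ran over 20308 probes. The fit was tested on simulated data. Of the tested probes, 16925 had 1 symbol in the platform annotation, 7 several and 3376 none, and all 86 matrix probes were found by Entrez ID in the RefSeq gene table. Where 1 probe stands for a gene, it is that of highest mean. Confidence intervals are at 95%, and the number of arrays limits the precision.

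The matrix genes, lists and tests were chosen with earlier results of these data known. Values in every sample were given for the genes of lowest p, up to 12 in each direction, and for a fixed set of 22 main fibroblast matrix genes, of which 20 were kept, which made 38 probes. Other genes were mostly named from fixed lists as the 2 of lowest p. Exceptions were Mgp and the fibroblast markers, the latter named for being detected or for having no kept probe. Alternatives covered the normalization (neqc, the authors' deposited values, quantile, normexp with median scaling), the detection filter, the variance model, array weights, a replicate block, samples left out in turn, and 1 probe per gene. Promoter sequences were those of RefSeq for GRCm38.p6, and the build behind the array is not given in the sources used here. Plots were made in Python 3.11.15 with matplotlib 3.10.9.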

Additional observations from a re-analysis of the deposited data

How the results depend on the processing

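With 3 arrays per group only differences larger than the spread between wells can be called, and a probe undetected in a whole group has only a bound. Under 17 alternatives, 0 matrix probes had an adjusted p of 0.05 or less, the lowest being 0.347 with quantile normalization; over all tested probes 0 to 15 were called. One of the 17, which kept the dimmest probes in the trimming of the vsn fit, was chosen after seeing the data and changed none of the counts. Of the 38 probes named, 26 kept their sign in every setting run and 12 changed it at least once. Most of the 26 had been picked for low p in these same data, which favours a kept sign. All 12 that changed were named only through the fixed set, where the probes of Serpinh1 and P4ha1 alone kept theirs.

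At an unadjusted p of 0.05 or less, the number of matrix probes that were higher was 1, and it became 2 with neqc (2.88% of all tested probes), 2 with array weights (3.65%), 0 with detection on all 6 arrays (2.77%) and 0 with genes in place of probes (2.76%). The number lower was 3, and it became 0 with normexp and median scaling (0.901%), 5 with the replicate number as a block (3.60%) and 1 with genes in place of probes (2.79%). The median fold change was 0.0504 with normexp and median scaling, beside 0.0407 for all tested probes under that setting. When each sample was left out in turn, the number higher ranged from 0 to 3, the number lower from 1 to 4, and the median from -0.0113 to 0.0240. Leaving out untreated replicate 1 gave 3 higher, while leaving out untreated replicate 2, Cr replicate 2 or Cr replicate 3 gave 0, and the number lower was 1 without Cr replicate 3 and 2 without untreated replicate 1. The causes were not tested. All matrix intervals lay inside 1.5-fold under 13 of the 17 alternatives. Of those outside, 20 were with neqc, 2 without Cr replicate 1 and 1 each without untreated replicate 2 or 3.

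The deviations of same-numbered samples had correlations of 0.240, 0.312 and -0.0306 over all tested probes. Over the matrix probes the correlations were 0.388, 0.221 and 0.0348. In both sets untreated replicate 3 correlated best with Cr replicate 2, so the numbers were not taken to pair the samples. With the replicate number as a block, 14 of all tested probes were called instead of 6, and the number of matrix probes called was 0 in both.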
